A study of Caenorhabditis elegans with 2 samples.

Results

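The microRNA (miRNA) genes outside the heterochronic timing pathway were examined for binding of the zinc-finger transcription factor LIN-29 in Caenorhabditis elegans. All 261 genes that the WBcel235 gene models class as miRNA were taken, and the 5 timing miRNA genes lin-4, let-7, mir-48, mir-84 and mir-241 were left out, which leaves 256 genes of 46890 on the 6 nuclear chromosomes. The material was chromatin of strain RW12227, in which TY1, EGFP and 3xFLAG tags were inserted by CRISPR at the endogenous lin-29 gene on chromosome II (st12227). Whole fourth-stage (L4) larvae at 49 hours, synchronised by starvation, were immunoprecipitated with antibody to GFP and sequenced as 2 replicates of a single group. The animals all carry the tagged allele, and no mutant, untagged or mock group was analysed here. Whole animals mix all tissues, so a site bound in few cells and a site bound weakly in many cannot be told apart.

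A miRNA is cut from a hairpin within a longer transcript, and the mature strand pairs with target messenger RNAs mainly through its seed, the bases near its 5′ end, to lower their translation or stability. Many worm miRNAs lie in clusters made from a shared transcript or in introns of protein-coding genes, so the start of transcription can be far from the annotated hairpin. LIN-29 acts at the end of the timing pathway, where it turns larval skin into adult skin, and the timing miRNAs act above it. The other miRNA families treated here serve other roles, among them embryonic viability, muscle, neurons and stress resistance.

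Of the 256 miRNA genes, 20 (7.81%) had a LIN-29 site in the authors' pooled peak list, against 4.06% of all genes and 5.48% of protein-coding genes. A site was assigned by a summit within 500 bp of the gene or within 2000 bp upstream of its 5′ end. The value for all genes is lowered by 15363 piRNA genes, of which 0.579% had a site. Several of the 20 miRNA genes belonged to families whose mature sequences, from the RefSeq annotation of WBcel235, are shown with the seed (bases 2 to 8) in capitals. The mir-64 family is shown first because 4 of its 5 genes lay beside 1 site: mir-229, mir-64, mir-65 and mir-66 form a cluster on the plus strand (mature strands from chrIII:2172459-2172484 to chrIII:2173124-2173146), whereas mir-63 (chrX:17598785-17598808, minus strand) had no candidate in the pooled ranked list and 1 at an IDR (the irreproducible discovery rate) of 0.877 in the second series-wide ranked list.
mir-229: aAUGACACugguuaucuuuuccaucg
mir-64: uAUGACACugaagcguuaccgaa
mir-66: cAUGACACugauuagggauguga
mir-63: uAUGACACugaagcgaguuggaaa

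The bantam-related miRNAs, known to act on body size and the TGF-β pathway, are shown because 2 of them, mir-58.1 (chrIV:3233314-3233335, plus strand) and mir-80 (chrIII:8865285-8865307, minus strand), had a site of their own, while mir-81 (chrX:2431138-2431159, plus strand) and mir-82 (chrX:2435273-2435294, minus strand) had none.
mir-58.1: uGAGAUCGuucaguacggcaau
mir-80: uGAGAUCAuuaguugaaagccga
mir-81: uGAGAUCAucgugaaagcuagu
mir-82: uGAGAUCAucgugaaagccagu
In the seed, with positions counted from 1 at the 5′ end of the mature strand, mir-80 and mir-58.1 differed by A8G, so bases 2 to 8 put mir-58.1 apart from the others. The mir-51 family, which is needed for embryonic development, had a site at 2 of its 6 genes, mir-51 (chrIV:11026074-11026096, minus strand) and mir-52 (chrIV:14034024-14034047, plus strand). Of the pair mir-46 (chrIII:13660529-13660550, plus strand) and mir-47 (chrX:13921268-13921289, plus strand), mir-47 alone had a site.
mir-51: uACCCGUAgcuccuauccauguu
mir-52: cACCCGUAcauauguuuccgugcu
mir-46: aAGAGAGCcgucuauugacagu
mir-47: aAGAGAGCagucuauugacagu

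The genomic sequence 50 bases to each side of the summit is shown for 6 of these sites, on the strand of the miRNA, from the RefSeq WBcel235 genome, the same assembly as the ce11 of the deposited peaks. The windows are chrIV:3232946-3233046 (plus) for mir-58.1, chrIII:8865536-8865636 (minus) for mir-80, chrIII:2172143-2172243 (plus) for the mir-229 cluster, chrIV:14033298-14033398 (plus) for mir-52, chrII:10868921-10869021 (minus) for mir-2216 and chrIV:11026073-11026173 (minus) for mir-51. Capitals mark 4 words of 6 bases on either strand: the word ACGCAG, then the GA repeat GAGAGA, the CG-rich word ACGCGC, and the A tract AAAAAA. At mir-51 they mark the tRNA-promoter element box B. Words that overlap run together.
mir-58.1 site: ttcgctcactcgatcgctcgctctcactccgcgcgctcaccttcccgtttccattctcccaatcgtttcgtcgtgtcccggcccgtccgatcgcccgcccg
mir-80 site: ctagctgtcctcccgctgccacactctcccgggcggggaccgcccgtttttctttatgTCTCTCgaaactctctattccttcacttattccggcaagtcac
mir-229 site: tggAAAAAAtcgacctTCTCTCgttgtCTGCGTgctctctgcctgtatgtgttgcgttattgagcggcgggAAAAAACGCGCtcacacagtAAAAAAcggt
mir-52 site: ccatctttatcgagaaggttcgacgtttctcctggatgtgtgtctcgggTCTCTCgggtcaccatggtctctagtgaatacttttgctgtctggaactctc
mir-2216 site: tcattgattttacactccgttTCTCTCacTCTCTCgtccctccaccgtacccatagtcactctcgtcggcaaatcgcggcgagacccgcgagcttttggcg
mir-51 site: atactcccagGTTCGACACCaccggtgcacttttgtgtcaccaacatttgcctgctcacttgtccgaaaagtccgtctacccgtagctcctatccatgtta
The window of mir-58.1 held none of these words, that of mir-80 held 1, and that of the mir-229 cluster held all 4 kinds. Near its end the mir-51 window holds the whole mature strand itself.

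Over the 856 pooled sites (906 peaks, with overlapping peaks joined), 9 of 256 miRNA genes had a summit within 500 bp, a share of 3.52% (95% Wilson interval 1.86 to 6.55%), against 2.96% of all genes and 4.10% of protein-coding genes. Within 2000 bp upstream, 18 of 256 miRNA genes had a summit, or 7.03% (4.49 to 10.8%), against 2.38% of all genes and 3.28% (3.05 to 3.54%) of protein-coding genes. By either rule the count was 20 of 256 (7.81%, 5.11 to 11.8%), against 4.06% of all genes and 5.48% of protein-coding genes. The protein-coding value lay within that interval. Of all 46890 genes, 15363 are classed as piRNA, and their low shares pull down the values for all genes. Among piRNA genes, 0.137% had a summit within 500 bp, 0.527% upstream and 0.579% by either rule. Protein-coding genes are longer than miRNA genes, so the 500 bp rule spans more DNA for them, whereas the upstream window is of equal length for both. The share near the gene was close to the background, and the upstream share lay above it, with an interval that did not reach the protein-coding value. The difference itself was not tested, because the genes were chosen with earlier results known and because neighbouring genes share sites: the 18 genes had 15 distinct upstream sites between them. The intervals cover counting over genes only, and no read depth was available here.

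Transfer RNA and small nucleolar RNA (snoRNA) genes, other short genes transcribed in the nucleus, had sites more often than the miRNA genes by both rules. Within 500 bp the shares were 24.5% of tRNA genes, 15.6% of snoRNA genes and 9.3% of small nuclear RNA genes, and upstream they were 13.6%, 16.5% and 7.75% in the same order. On the downstream side the miRNA genes had a summit within 2000 bp at 7 of 256 (2.73%), against 18 upstream; protein-coding genes had 2.15% downstream against 3.28% upstream. The comparison of the 2 sides was chosen after the values were seen. By distance from the 5′ end, shares above those of protein-coding genes were not confined to the upstream window. In the 500 bp ending 3000 bp upstream, 7 miRNA genes (2.73%) had a summit, against 0.436% of protein-coding genes. From 2000 to 2499 bp downstream, 4 (1.56%) had one, against 0.32%. Some stretches went the other way: in the 500 bp just beyond the upstream window no miRNA gene had one, against 0.371%.

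**Figure D1:**
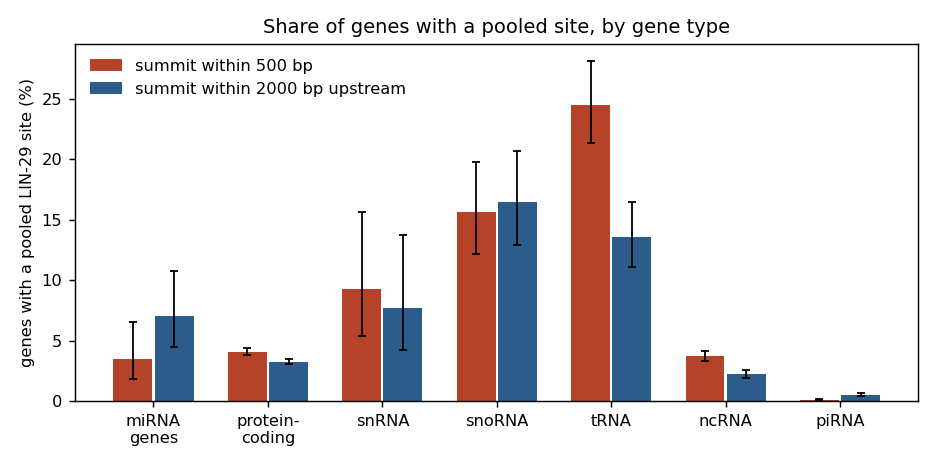
Share of genes (percent, vertical axis) with a pooled LIN-29 summit within 500 bp of the gene or within 2000 bp upstream, for the 256 miRNA genes and, to their right, genes of 6 other types; error bars are 95% Wilson intervals. The miRNA genes stand at 3.52% and 7.03%, protein-coding genes at 4.10% and 3.28%, and tRNA genes at 24.5% and 13.6%.

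The 20 genes shared 16 distinct sites, of which 8 lay within 500 bp of a miRNA gene and 15 upstream of one. Both rules were met by 7 genes, the upstream rule alone by 11, and the 500 bp rule alone by mir-8186.1 and mir-4936. The authors' peak signal, whose scaling is not stated, had a median of 71.9 (range 57.6 to 151) at the 16 sites against 79.9 at all 856, and 5 of the 16 (31.2%) ranked in the stronger 50% of the list. The 8 sites within 500 bp had a median signal of 68.5, with 1 of them in that stronger part. The miRNA sites were thus mostly in the middle and lower ranks of the list.

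Both replicates' own thresholded lists held 1 of the 16 sites (6.25%), against 267 of all 856 (31.2%). Replicate 1 alone held 8 of the 16, against 206 of all 856, and replicate 2 alone held 1, against 90 of all 856. The other 6 (37.5%) were in neither, against 34.2% of all sites in neither. Replicate 1's list is the longer one, with 528 sites against 381. The authors' conservative list held 14 (87.5%), against 81.0% of all sites. Most miRNA sites were thus in the conservative list, while of the replicates' own lists they were in replicate 1's only or in neither. Ranks are given from the replicates' ranked lists, of 43103 candidates in replicate 1 and 44693 in replicate 2.

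**Figure D2:**
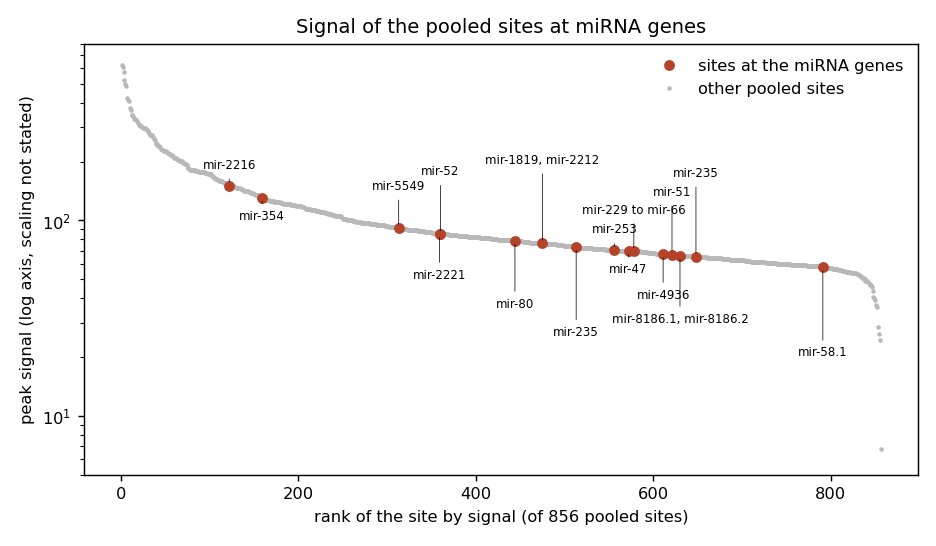
Peak signal of the 856 pooled sites (log axis, scaling not stated) against their rank by signal; the 16 sites at miRNA genes are the large named points and the other sites small grey points. The miRNA sites run from rank 122 (mir-2216, signal 151) to rank 791 (mir-58.1, signal 57.6), and 5 lie in the stronger 50%.

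Of the bantam-related genes, mir-58.1 and mir-80 had a site a short way upstream. For mir-58.1, which lies in an intron of the phosphorylase kinase subunit gene phkb-1 on the same strand, the summit was 258 bp upstream of the hairpin (site IV 3232851 to 3233140), with signal 57.6, rank 791 of 856. Its signal was 37.0 (rank 814) in replicate 1 and 31.0 (rank 846) in replicate 2. The IDR values were 0.0297 and 0.0312, both outside the lists' limit of 0.01. IDR is an expected share of peaks that do not replicate. A replicate's IDR comes from its own list, so it does not measure agreement between the 2 replicates. For mir-80, outside any coding intron, the summit was 219 bp upstream (III 8865441 to 8865730), with signal 78.8, rank 444. Its signal was 44.6 (rank 498, IDR 0.0136) in replicate 1 and 34.6 (rank 606, IDR 0.0901) in replicate 2. Both sites were thus at like ranks in the replicates, fell short of the threshold in each alone, and were in the pooled and conservative lists. Among their relatives, mir-81 had a best pooled candidate at IDR 0.709, mir-58.2 and mir-58c shared one at 0.611, mir-2209.1 had one at 0.583, and mir-82 had none in reach. In the second series-wide ranked list the best values were 0.42 at mir-81, 0.281 at mir-82, 0.537 at mir-58.2 and mir-58c, and 0.152 at mir-2209.1, so none of these reached the limit in either.

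The cluster of mir-229, mir-64, mir-65 and mir-66 lies in an intron of gcn-1, the homologue of a translation regulator known from yeast, on the same strand. Its single site (III 2172048 to 2172337) lay 259, 655, 809 and 915 bp upstream of the 4 hairpins in that order, with signal 69.5, rank 578. Replicate 1 gave signal 50.8 at rank 364 (IDR 0.0095) and replicate 2 gave 21.1 at rank 4672 (IDR 0.878). This site was in replicate 1's list and in neither the conservative list nor replicate 2's, so 4 of the 20 genes rest on a peak that replicate 2 ranked far lower. The shares of genes count these 4 singly, although they stand beside 1 site.

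In the mir-51 family, the site at mir-51 (IV 11025978 to 11026267) had its summit 11 bp upstream of the annotated hairpin, with signal 66.9, rank 621. Its ranks were 785 in replicate 1 (signal 37.4, IDR 0.0215) and 720 in replicate 2 (signal 32.5, IDR 0.0122). The site of mir-52 (IV 14033203 to 14033492) was stronger in the pooled list, signal 85.3 at rank 360, with its summit 660 bp upstream. It was in replicate 1's list (signal 59.1, rank 264, IDR 0.00138), whereas replicate 2 had no candidate within 100 bp of the summit. Replicate 2's best candidate in reach of mir-52 by either rule had signal 31.0 and an IDR of 0.0393. Of the other genes of the family, mir-53 had a best pooled candidate at IDR 0.3, and mir-54, mir-55 and mir-56, which lie close together on the X chromosome, had one at 0.662. In the second series-wide ranked list those 3 had one at 0.0303, over the limit as well. The 3 genes, together with mir-55b, had a site in replicate 2's thresholded list alone (X 13145163 to 13145432), with signal 24.1 at rank 378 of 381. Its summit was 204 bp upstream of mir-54, 374 bp upstream of mir-55 and 511 bp upstream of mir-56.

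Upstream of mir-47, one of a pair with the same seed as mir-46, a site at X 13920423 to 13920712 had its summit 682 bp from the hairpin, with signal 69.9, rank 572. It was in the conservative list and in neither replicate's, at rank 1062 (IDR 0.153) in replicate 1 and 670 (IDR 0.0546) in replicate 2. The best candidate at mir-46 had an IDR of 0.604. The gene mir-253, in an intron of F44E7.5, had a site (V 5780756 to 5781045) 285 bp upstream with signal 70.5, rank 556. That summit lay 21 bp inside the 5′ end of F44E7.5, so a site of the host's start and one of the miRNA cannot be told apart. Replicate 1 listed it (rank 540, IDR 0.00445) and replicate 2 ranked it 3009th (IDR 0.146). For comparison, the timing miRNA lin-4 had its summit 292 bp upstream with signal 72.9, rank 517, in neither replicate's list, and was the only one of the 5 timing genes with a pooled site. The summits at mir-80, mir-58.1, mir-229, mir-253 and lin-4 all lay between 219 and 292 bp upstream of their hairpins, a grouping made after the values were seen. Other upstream summits within 500 bp lay outside this range, 11 bp from mir-51, 18 bp from mir-5549 and 338 bp from mir-8186.2.

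The strongest site at a miRNA gene, and the only one in all of the lists, was at mir-2216 (II 10868826 to 10869115), with signal 151, rank 122. It ranked 135 in replicate 1 (signal 83.6, IDR 0.000103) and 148 in replicate 2 (signal 63.1, IDR 0.000469). The hairpin lies 1799 bp away in an intron of gmps-1, the GMP synthase gene, and the summit was 251 bp upstream of gmps-1 and 225 bp upstream of its neighbour cap-2, which encodes an actin capping protein subunit. Over the 16 sites, 13 summits were nearer to the miRNA 5′ end than to any protein-coding 5′ end, and those of mir-2216, mir-354 and mir-253 were not. The site of mir-354 (signal 131, rank 159) was 857 bp upstream of the hairpin and 152 bp upstream of ekl-4. That of mir-5549 (III 6971958 to 6972247, signal 91.9, rank 313) was 18 bp upstream of the hairpin and 150 bp upstream of rfc-4, a replication factor C subunit gene. Replicate 1 listed both, at ranks 177 and 213, and replicate 2 ranked them 174 (IDR 0.017) and 1087 (IDR 0.58).

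Lower in the list, mir-4936 had a summit inside the hairpin, 54 bp from its 5′ end (III 3249060 to 3249349, signal 67.4, rank 611), which lay 630 bp upstream of nduf-9, a mitochondrial complex I gene. The overlapping genes mir-8186.1 and mir-8186.2, on opposite strands, shared a site (II 18890 to 19179, signal 66.0, rank 630) 503 bp upstream of gmeb-1. Its summit was 397 bp downstream of the 5′ end of mir-8186.1 and 338 bp upstream of that of mir-8186.2. Neither replicate's list held these 2 sites. That of mir-4936 ranked 826 in replicate 1 (IDR 0.0455) and 1152 in replicate 2 (IDR 0.87), and that of the mir-8186 pair ranked 1262 (IDR 0.825) and 751 (IDR 0.202) in the same order. On the X chromosome, mir-2221 had a site 1263 bp upstream (1389439 to 1389728, signal 85.3, rank 359) that replicate 1 listed at rank 362 and replicate 2 ranked 717 (IDR 0.13). The neighbours mir-1819 and mir-2212 shared a site of 2 joined peaks (X 16205860 to 16206363, signal 76.3, rank 475), 1950 and 1824 bp upstream. It was the single miRNA site that replicate 2 listed and replicate 1 did not, at ranks 272 (IDR 0.00218) and 1518 (IDR 0.475) in that order.

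The gene mir-235, the worm member of the mir-92 family, which is known to hold progenitor cells quiescent in starved larvae, was the only gene with 2 sites. They lay 1181 bp (signal 65.3, rank 648) and 1901 bp (signal 73.4, rank 513) upstream. Each summit was 24 bp from a tRNA gene, and 82.4% and 81.6% of the 36-base words of the sites occurred once in the genome, against 100% at the other 14 miRNA sites. Replicate 1 listed both, at ranks 868 and 878. In replicate 2 they ranked 1468 (IDR 0.425) and 371 (IDR 0.876), so neither was listed. Reads from tRNA copies could in part be placed at either site, and the part of this in the signal was not tested.

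**Figure D3:**
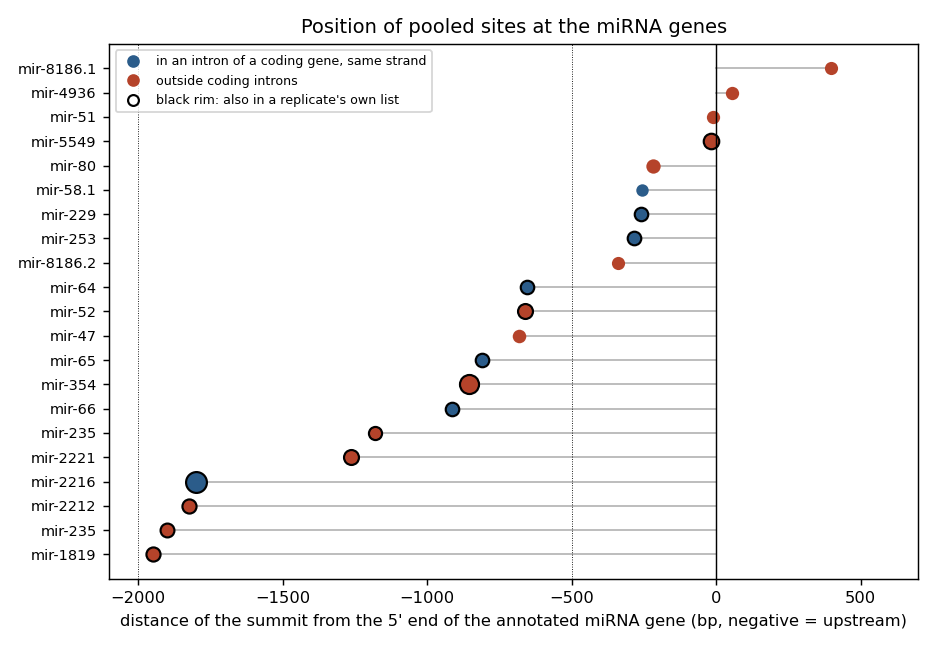
Distance of each pooled summit from the 5′ end of its miRNA gene (bp, negative is upstream); point area grows with signal, colour gives the gene's place, and a black rim marks sites in a replicate's own list. The summits of mir-80, mir-58.1, mir-229 and mir-253 lie from 219 to 285 bp upstream, and those of mir-51 and mir-5549 lie 11 and 18 bp upstream.

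**Figure D4:**
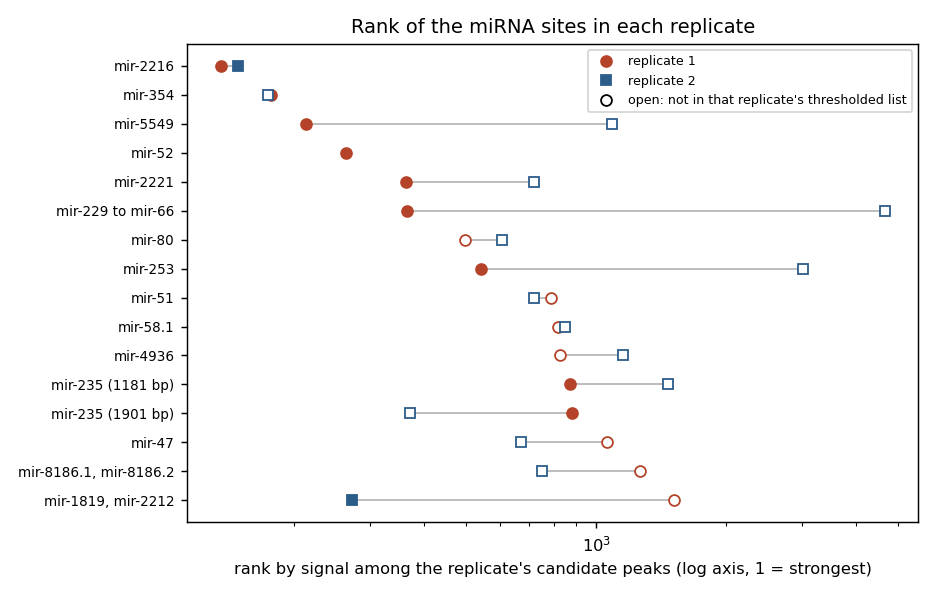
Rank by signal of the 16 miRNA sites among the candidate peaks of replicate 1 and replicate 2 (log axis, 1 is strongest); filled points are in that replicate's thresholded list. At mir-2216 both points are filled (ranks 135 and 148), and at the mir-229 cluster the ranks are 364 and 4672. No replicate 2 point is drawn for mir-52, as that replicate had no candidate within 100 bp of the summit.

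By surroundings, a grouping chosen after the values were seen, 6 of the 16 sites (37.5%) lay within 1000 bp of a protein-coding 5′ end, against 51.8% of all 856 sites. Sites near both a coding start and another small RNA gene count with the coding starts. Away from coding starts, another small RNA gene lay within 500 bp of 2 of the 16 sites (12.5%). The same class held 14.1% of all 856 sites, so it leaves out part of the sites near small RNA genes. The other 8 of the 16 sites had neither, against 34.1% of all: those of mir-58.1, mir-80, the mir-229 cluster, mir-51, mir-52, mir-47, mir-2221 and the pair mir-1819 and mir-2212. These 8 had a median signal of 73.1 (57.6 to 85.3), and the 6 near a coding start one of 81.2. Over all 856 sites the medians were close to these, at 74.8 and 82.2 in the same order. The 3 strongest miRNA sites, those of mir-2216, mir-354 and mir-5549, were near coding starts.

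In base content the miRNA sites were like the rest, with a median GC content of 50.5% (36.6 to 65.3%), against 49.5% over all sites. Within 50 bp of the summit, GAGAGA occurred at 7 of 16 miRNA sites (43.8%), against 22.0% of all sites, and in windows of the same length 500 bp to either side in none, against 5.78% for all sites. The 7 were the sites of mir-80, the mir-229 cluster, mir-52, mir-253, mir-2216, mir-5549 and mir-8186.1. ACGCAG occurred at 3 (18.8%), against 17.2% of all sites and 2.28% of all flanking windows, and ACGCGC at 2 (12.5%), against 12.5%. The A-tract AAAAAA occurred at 3 (18.8%), against 24.3%, and was commoner in the flanking windows, at 46.9% for miRNA sites and 38.6% for all sites. With 16 sites, each one is 6.25 percentage points, and none of these differences was tested. The box B pattern, added after the values were seen, occurred at 2 of the 16 (12.5%), those of mir-51 and 1 site of mir-235. It occurred at 11.0% of all sites, 45.3% of sites near a tRNA gene and 4.95% of the rest. In the windows 500 bp to either side of all summits it occurred in 0.935%. At mir-51 no other small RNA gene was annotated within 500 bp.

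The miRNA genes outside coding introns had a site at 13 of 156 (8.33%, 4.93 to 13.7%). Those in a same-strand intron had one at 7 of 68 (10.3%, 5.08 to 19.8%). Those in an intron on the opposite strand had none of 32, which allows a share of up to 9.38% by 3 counts and 10.7% by the Wilson interval. The intervals overlap, no difference among the 3 places was tested, and their order turned with the list. In the conservative list the counts were 13 of 156 outside introns, 3 of 68 (4.41%) on the same strand and 1 of 32 (3.12%) on the opposite one. In replicate 2's list they were 2 of 156, 2 of 68 (2.94%) and 3 of 32 (9.38%) in the same order, the last 3 being mir-54, mir-55 and mir-56 at 1 site. The 68 same-strand genes lay in 61 host genes. For 4 of them, in 2 hosts, a site lay within 2000 bp upstream of the host's 5′ end: mir-2216 in gmps-1, and mir-1829.3, mir-4812 and F39B1.3 in piki-1, a phosphoinositide 3-kinase gene, whose site 369 bp upstream had signal 79.3. The intronic genes mir-58.1, mir-229, mir-64, mir-65 and mir-66 had their site inside the host gene and none upstream of it.

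Grouped by seed, 102 miRNA genes shared bases 2 to 8 of a mature strand with another, and 11 of these (10.8%) had a site, against 9 of the other 154 (5.84%). The 11 include the 4 genes beside the mir-229 site and the overlapping pair mir-8186.1 and mir-8186.2. No gene of the mir-35 family, 8 genes with seed CACCGGG that are essential in the embryo, had a pooled site. Their best candidates had IDR values of 0.553 for mir-35 to mir-40, 0.341 for mir-41 and 0.329 for mir-42. The seed group of mir-72, mir-73 and mir-74 had no site either, with best values of 0.0896 at mir-72 and 0.251 at the other two.

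Of the 236 genes without a pooled site, 7 had one in another thresholded list and 229 had none in any of the 4. The conservative list alone held mir-1824 (summit 393 bp downstream of its 5′ end, signal 61.2, rank 692 of 802) and mir-2214 (40 bp upstream, signal 54.3, rank 775 of 802). Replicate 1 alone held mir-34, a stress-response miRNA, with a summit 1878 bp upstream (X 2971594 to 2971857, signal 44.2, rank 442 of 528). Replicate 2 alone held the cluster of mir-54, mir-55, mir-55b and mir-56.

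In the conservative list, 9 of the miRNA genes had a summit within 500 bp (3.52%), against 2.75% of all genes and 3.80% of protein-coding genes. Upstream there were 14 (5.47%, 3.29 to 8.97%), against 2.18% and 3.13%, and by either rule 17 (6.64%), against 3.76% and 5.18%. In replicate 1's list the counts were 4 within 500 bp (1.56%, against 1.81% of all and 2.46% of protein-coding genes), 12 upstream (4.69%, 2.7 to 8.01%, against 1.61% and 2.26%) and 12 by either rule (4.69%, against 2.59% and 3.46%). In replicate 2's list they were 3 within 500 bp (1.17%, against 1.42% and 1.94%), 6 upstream (2.34%, 1.08 to 5.02%, against 1.15% and 1.59%) and 7 by either rule (2.73%, against 1.94% and 2.61%). The upstream share of miRNA genes was thus above that of protein-coding genes in every list, and in replicate 2's the interval took in the protein-coding value. The lists share reads and are not independent of each other. Of the 17, 12 and 7 genes, 15, 11 and 3 were also among the pooled 20.

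Below the threshold, 210 of the 256 genes (82.0%) had some candidate in the pooled ranked list of 65474 peaks, against 83.9% of protein-coding genes. At an IDR of at most 0.05 the count was 28 (10.9%), against 8.91%, and at most 0.5 it was 80 (31.2%), against 37.7%. Of the genes in no thresholded list, the nearest to the 0.01 limit were mir-4929 (0.0117), mir-4806 (0.0161), mir-353 (0.0224) and mir-71 (0.0247), the last a miRNA known for extending lifespan. They were followed by mir-8190 (0.0277), mir-45 (0.0395), mir-1832.1 (0.0509), mir-2215 (0.0552), mir-5595 (0.0601) and mir-1830 (0.0774). The values and their order moved with the list: in the second series-wide ranked list mir-4929 had 0.103, mir-4806 0.0542, mir-353 0.0231, mir-71 0.211, and mir-8190 0.016, and mir-1830 had 0.386. Among the timing genes left out, mir-241 had a best value of 0.0531, let-7 0.0594, mir-84 0.213 and mir-48 0.231.

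Relatives of the timing miRNAs had no site: mir-237, the lin-4 paralogue, had a best IDR of 0.764, and the let-7-related mir-795, mir-794 and mir-793 had 0.0955, 0.56 and 0.705. Among miRNAs with known tissue roles, muscle mir-1 had 0.876, neuronal mir-124 had 0.561 and lsy-6, which sets left-right asymmetry of a taste neuron pair, had 0.454. The glial mir-228 had 0.0878 and mir-90 had 0.15. Further from the limit were mir-2 (0.366), mir-43 and mir-44 (0.329), mir-238 (0.519), mir-247 (0.606), mir-239.2 (0.634), mir-240 and mir-786 (0.644), and mir-61, mir-250, mir-83 and mir-246 (0.876). The pooled ranked list had no candidate in reach of mir-60, mir-70, mir-85, mir-234 or mir-239.1. Of these, mir-60 had none in the other ranked lists either, whereas mir-70 and mir-234 had one at 0.877 in the second series-wide list, mir-85 one at 0.937 in replicate 2 and mir-239.1 one at 0.73 in replicate 1. A candidate below the threshold is not a binding site, and its absence covers only the list named and the 500 bp and 2000 bp windows.

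**Figure D5:**
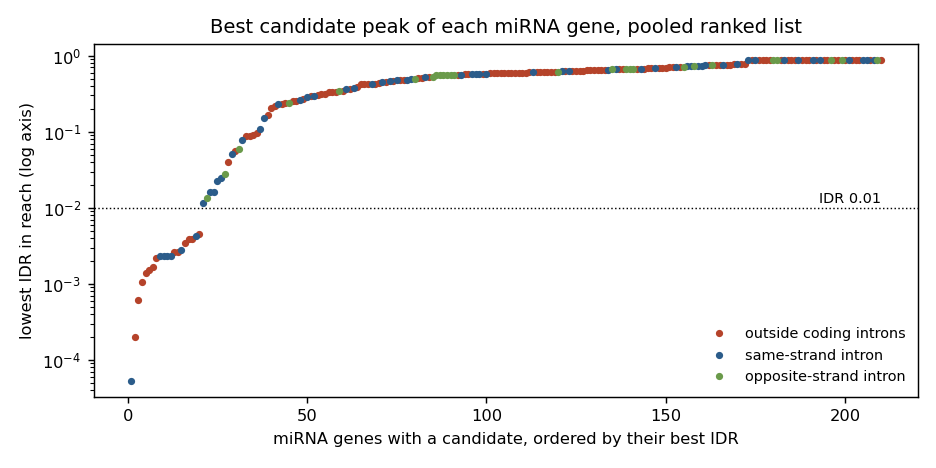
Lowest IDR (log axis) of any pooled candidate peak in reach of each of the 210 miRNA genes that had one, ordered by that value and coloured by the gene's place. The 20 genes with a listed site lie under the dotted line at 0.01, mir-4929, at 0.0117, is the next above it, and most of the others lie above 0.1.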

How the data were processed

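The deposited peak lists give, for each peak, a score and a peak signal. Per the file headers and values, the score column is 125 times −log2 of the IDR, held at 1000, and every listed peak of the pooled list has an IDR of at most 0.01. The authors' peak signal has no stated scaling, so signal was compared within a list and replicates by rank. The ranked lists also carry −log10 of the IDR, as the authors deposited it. No source used here names the aligner or the peak caller or gives the read depth, and a further input of unstated role entered each list. Gene models were Ensembl release 115 (WBcel235); RefSeq symbols, mature miRNAs and genome sequence of the same assembly were joined by WormBase ID. Overlapping peaks were joined to sites, and genes were assigned by summit within 500 bp or within 2000 bp upstream. A replicate's candidate was matched within 100 bp of the summit. Shares have 95% Wilson intervals. Genes were named where they had a site in any thresholded list, as the 10 nearest to the limit, or as members of families given whatever their values. The members, gene lists and words were chosen with earlier results of these data known. The replicates have separate sample entries, and nothing states whether they were separate cultures. No test between groups could be made. Python 3.11.15, pandas 2.3.3, numpy 2.4.6 and scipy 1.17.1 were used. The sequence of 1 mature strand is not reported here.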

Additional observations from a re-analysis of the deposited data

How the results depend on the processing

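No paired analysis was possible because the samples form 1 group. Of 47 alternatives, 25 left a count within 1.5 times its value; the 22 others include a small shift of the median signal, which has no replicate spread to set it against. The cause of the other changes was not tested beyond the construction of each list. With the stronger 50% of the pooled sites, 1 miRNA gene had a summit within 500 bp, 5 upstream and 5 by either rule, of which 1 lay in a coding intron and 4 outside. With sites in both replicates' lists the counts were 0, 1, 1, 1 and 0 in the same order. From 1 replicate's list alone they ranged from 3 to 4 within 500 bp, 6 to 12 upstream, 7 to 12 by either rule, 5 to 6 in introns and 2 to 6 outside. The conservative list had 4 intronic genes, of which 2 were among the pooled 7. Counts of like size did not always hold the same genes. Of the 5 intronic genes in replicate 2's list, 1 was among the pooled 7. Of the conservative list's 9 genes within 500 bp, 7 were among the pooled 9. Within 200 bp the count was 3, within 1000 bp 16, and within 5000 bp upstream 35. With every peak kept singly, the median signal was 70.5. At an IDR of at most 0.1 without a listed site, the pooled ranked list had 16 genes and the second ranked list 13, with 9 shared.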

Other observations

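Genes numbered below 1000, together with lsy-6, are mostly the miRNAs found earliest and the best studied. Of these 133, 12 (9.02%, 5.24 to 15.1%) had a pooled site by either rule, against 8 of the 123 numbered 1000 or higher (6.5%, 3.33 to 12.3%); this split was chosen after the values were seen, and the intervals overlap. In the conservative list the order turned, with 7 of 133 (5.26%) against 10 of 123 (8.13%). Inside the body of host genes, sites also lay in pmp-5, the host of mir-70 (signal 58.5), and in ppfr-1, the host of mir-2 and mir-71 (signal 136), outside the windows of these miRNAs.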
